A study of Danio rerio with 15 samples.

Results

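The response of endothelial cells to constitutively active Stat3 (CA-Stat3) was set against the response to wildtype Stat3 (WT-Stat3) in zebrafish embryos with sf3b1 function, with all sf3b1 mutants left out. The libraries were chosen by the genotype and construct in their titles, which gave 10 of the 15 libraries of the study. Poly(A) RNA was sequenced from cells sorted for kdrl, a vascular endothelial growth factor receptor, at 28 hours post fertilization. Wildtype embryos carried WT-Stat3 in 2 libraries and CA-Stat3 in 3, and so did siblings of the mutants. A library is named by genotype, construct and replicate number (sibling CA 3). Every one of the 10 libraries came from embryos that overexpressed a Stat3 construct, so the comparison has no baseline without one. The sf3b1 alleles of the siblings, the change that makes CA-Stat3 active, the promoter that drives either construct and the number of embryos in a library are not stated in the labels. Nor do they say whether replicates are independent clutches or sorts. The p-values therefore reflect the variation among these 10 libraries, some of which may be technical.

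Stat3 is a transcription factor that waits in the cytoplasm until a cytokine receptor of the gp130 family activates Janus kinases. The kinases phosphorylate it, and it then dimerises, enters the nucleus and turns on target genes, among them Socs3, which shuts the receptor off again. A constitutively active form acts without the cytokine. At this stage the kdrl-positive vessels include arteries, veins and the haemogenic endothelium of the dorsal aorta, from which the first blood stem cells emerge.

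Library totals were 5161557 to 8170371 counts, and 1 row, zgc:158463, took up 16.29% to 26.96% of them. In wildtypes its share was 19.32% and 20.7% with WT-Stat3 and 21.72% to 22.14% with CA-Stat3, without overlap. In siblings it was 16.29% and 22.3% against 22.09% to 26.96%, with overlap. Sibling CA 3 was the shallowest library and stood apart on the first principal component. Expression is given as CPM, which are counts scaled to library size after TMM normalization. The Spearman correlations of this library with the other 9 were 0.8961 to 0.9522, against 0.9364 to 0.9726 over the 36 pairs without it. Endothelial genes were present in all 10 libraries. Lens cryaa was at 0 in 8 of them, whereas the neutrophil, erythroid, muscle, neural and epidermal markers lyz, SLC4A1 (ENSDARG00000012881), smyhc1, ELAVL3 and krt4 had counts in every library.

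By the test that was adjusted over all genes, CA-Stat3 and WT-Stat3 embryos differed in 1 gene. DNAH10, which encodes a heavy chain of the ciliary dynein motor, fell with CA-Stat3. It was 1 of 17597 genes tested (0.00568%) with a Benjamini-Hochberg (BH) adjusted p under 0.05 by edgeR's quasi-likelihood test, and 0 genes were called higher. Without adjustment, 2057 genes (11.7%) had p under 0.05, of which 880 were higher (5%) and 1177 lower (6.69%). DESeq2 on the same libraries called 267 of the 12815 genes to which it gave an adjusted p (2.08%), 80 higher (0.624%) and 187 lower (1.46%), and limma called 3 (0.017%). All 267 had an unadjusted edgeR p under 0.05, and 240 of them had no overlap between constructs in either genotype. Such a lack of overlap within wildtypes and within siblings was seen for 344 genes that were higher (1.95% of those tested) and 657 that were lower (3.73%). The median log2 fold change of all genes tested was 0.02, so list medians can be read against 0. In what follows, only DNAH10 passed the adjusted test, and the other genes are described by their values.

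DNAH10 had 63.4 and 67.1 CPM in the wildtype WT-Stat3 libraries and 53.7 and 49.8 CPM in the sibling WT-Stat3 libraries. With CA-Stat3 it had 24.9, 32.2 and 29.2 CPM in wildtypes and 32.3, 20.2 and 22.2 CPM in siblings. Every CA-Stat3 library thus lay below every WT-Stat3 library, with 109 to 517 counts behind each value. DNAH10 fell by 1.12 ± 0.14 on the log2 scale (SE), which is 2.17-fold, at a BH-adjusted p of 0.0454 by edgeR. The call ended when any of 8 of the 10 libraries was left out, with adjusted p up to 0.232, and it held without sibling CA 1 or sibling CA 3. It also ended when replicate number was added to the edgeR test as a block.

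The other 4 genes with the smallest p were all lower with CA-Stat3 and missed the threshold at the same adjusted p of 0.0695 by edgeR. TULP4, a member of the tubby-like protein family, had 24.9 and 22.8 CPM in wildtypes and 20.1 and 17.1 CPM in siblings with WT-Stat3. With CA-Stat3, TULP4 had 11.7, 9.78 and 11.4 CPM in wildtypes and 6.16, 7.91 and 3.67 CPM in siblings, and its log2 fold change was -1.37 ± 0.19. The highest CA-Stat3 library was thus below the lowest WT-Stat3 library. SIK1, a salt-inducible kinase that is itself induced by cAMP signalling, had 519 and 448 CPM in wildtypes and 219 and 251 CPM in siblings with WT-Stat3. With CA-Stat3, SIK1 had 199, 308 and 188 CPM in wildtypes and 112, 153 and 107 CPM in siblings. The constructs were separate in each genotype, with a log2 fold change of -0.99 ± 0.15, but the sibling WT-Stat3 libraries lay within the range of the wildtype CA-Stat3 libraries.

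PDE4D, a phosphodiesterase that breaks down cAMP, had 62.0 and 67.9 CPM in wildtypes and 68.8 and 49.0 CPM in siblings with WT-Stat3. With CA-Stat3, PDE4D had 39.7, 37.7 and 44.4 CPM in wildtypes and 31.6, 30.2 and 27.7 CPM in siblings, all below the WT-Stat3 libraries. The log2 fold change of PDE4D was -0.83 ± 0.13. For rgs3a, a regulator that speeds the switching off of G proteins, the 4 WT-Stat3 libraries had 91.5, 56.0, 60.5 and 55.5 CPM. The CA-Stat3 libraries had 34.7, 42.2 and 39.3 CPM in wildtypes and 27.7, 34.6 and 24.5 CPM in siblings for rgs3a, with no overlap and a log2 fold change of -0.97 ± 0.15. All 4 genes were called by DESeq2. TULP4 and SIK1 were also called by limma, and leaving out sibling CA 3 brought TULP4 under the edgeR threshold.

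**Figure D1:**
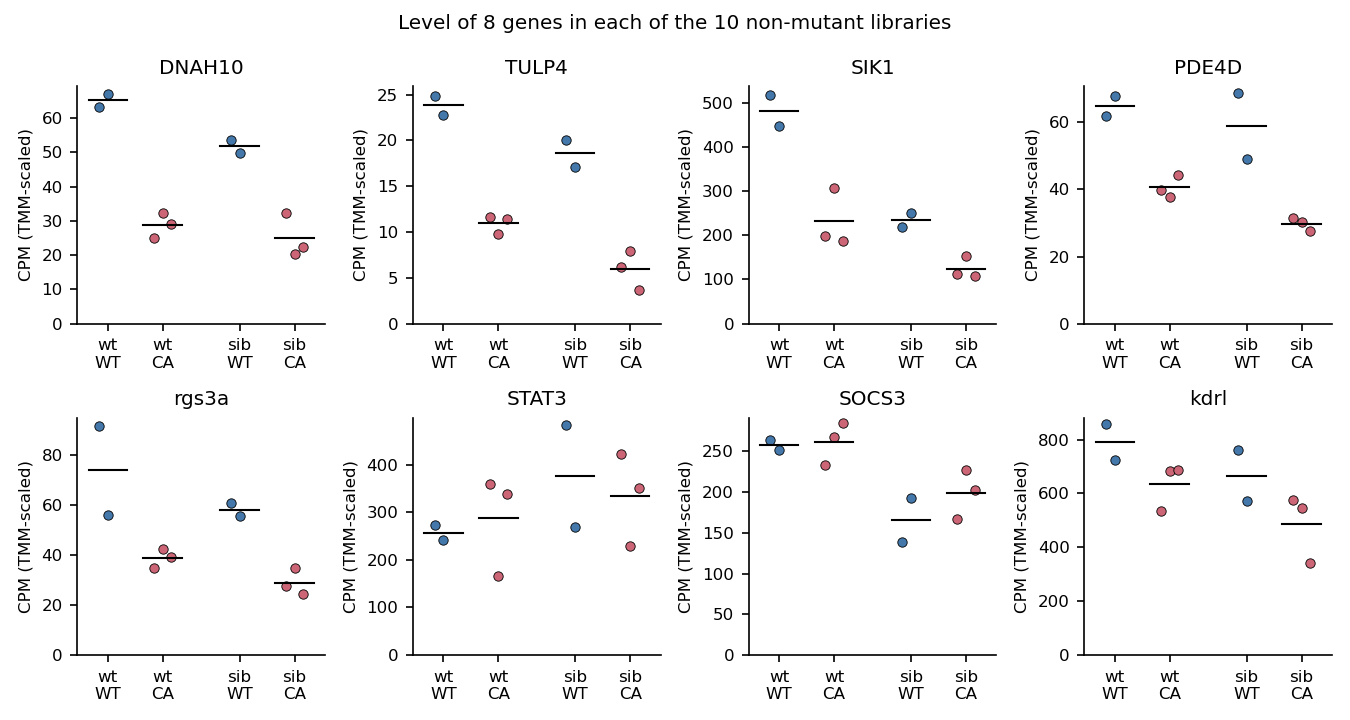
CPM (vertical axis, from 0) of 8 genes in each of the 10 libraries, by genotype (wt, sib) and Stat3 construct, where each point is 1 library and each bar a group mean. The CA-Stat3 points of DNAH10, TULP4, PDE4D and rgs3a lie below all WT-Stat3 points, those of SIK1 do so within each genotype, and those of STAT3 and SOCS3 (ENSDARG00000026611) overlap them.

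Of the genes of the Stat3 pathway itself, none was called by edgeR in either direction, where 1 of all 17597 genes (0.00568%) was. STAT3 (ENSDARG00000022712) had 274 and 241 CPM in wildtypes and 483 and 268 CPM in siblings with WT-Stat3. With CA-Stat3, STAT3 had 358, 166 and 339 CPM in wildtypes and 422, 229 and 352 CPM in siblings, so the constructs overlapped throughout. The log2 fold change of STAT3 was -0.01 ± 0.23, and the counts do not tell endogenous from introduced transcripts. Its lowest and highest libraries in all were thus a wildtype CA-Stat3 and a sibling WT-Stat3 library.

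The feedback inhibitor SOCS3 is counted under 2 identifiers. SOCS3 (ENSDARG00000026611) had 264 and 252 CPM in wildtypes and 139 and 193 CPM in siblings with WT-Stat3. With CA-Stat3 it had 234, 268 and 284 CPM in wildtypes and 167, 227 and 202 CPM in siblings, overlapping in both genotypes. Its log2 fold change was 0.14 ± 0.13, and that of SOCS3 (ENSDARG00000025428), the lower of the pair at 12.8 to 38.3 CPM, was 0.05 ± 0.23. Both were lower in siblings than in wildtypes by mean in each construct.

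Among 45 tested ligands, receptors, kinases and transcription factors of the JAK-STAT pathway, 2 were higher and 6 lower at an unadjusted p under 0.05. The shares of all genes were 5% and 6.69%. The median log2 fold change of the 45 was -0.01. The receptors lifra (-0.37 ± 0.11), a leukaemia inhibitory factor receptor, and ghrb (-0.65 ± 0.22), a growth hormone receptor, had the smallest p. The shared receptor subunit il6st, known as gp130, was at 0.01 ± 0.19 and the kinase JAK1 at 0.11 ± 0.15. Of 90 tested targets and feedback genes known from Stat3 studies in mammals and zebrafish, 5 were higher and 7 lower at that level. Their median was -0.04. DESeq2 called 1, which was lower, against 1.46% of the genes to which it gave an adjusted p. The call was JUNB (ENSDARG00000104773), an AP-1 transcription factor, at -0.53 ± 0.14, and the second JUNB gene (ENSDARG00000074378) was at -0.54 ± 0.15. CEBPB (-0.14 ± 0.26), CEBPD (-0.18 ± 0.20) and mcl1b (-0.24 ± 0.14), further targets, had unadjusted p of 0.588, 0.396 and 0.103. The shares of the target list at the unadjusted level were close to those of all genes.

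Genes of endothelial identity lay lower in the CA-Stat3 libraries. Of 64 tested members of a list of endothelial receptors, junction proteins and transcription factors, 37 were lower and 0 higher at an unadjusted p under 0.05, against 6.69% and 5% of all genes. For 22 of the 64 the constructs did not overlap in either genotype, all 22 being lower with CA-Stat3, against 3.73% of all genes. DESeq2 called 12, all lower, against 1.46% of the genes to which it gave an adjusted p. The list's median log2 fold change was -0.40, and it stayed between -0.45 and -0.32 in 20 other settings. Without sibling WT 1 the count of 37 became 24. Here and below, shares of all genes are from all libraries of a comparison, and those without single libraries are not given.

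The angiopoietin receptor tek had 135 and 143 CPM in wildtypes and 101 and 108 CPM in siblings with WT-Stat3. With CA-Stat3, tek had 70.9, 110 and 91.8 CPM in wildtypes and 61.4, 68.3 and 46.7 CPM in siblings, separate within each genotype, with a log2 fold change of -0.72 ± 0.14. It had the smallest p of the list. The junction cadherin cdh5 had 1332 and 1031 CPM in wildtypes and 1039 and 859 CPM in siblings with WT-Stat3. With CA-Stat3, cdh5 had 801, 846 and 837 CPM in wildtypes and 744, 684 and 439 CPM in siblings, every one below the WT-Stat3 libraries, at -0.56 ± 0.14. The sorted gene kdrl overlapped between constructs at 571 to 856 CPM with WT-Stat3 and 340 to 687 CPM with CA-Stat3, and its log2 fold change was -0.38 ± 0.15. The transcription factor FLI1, which drives endothelial genes, was at -0.39 ± 0.12 and separate in each genotype. Other members, named after their values were seen, were the semaphorin receptor plxnd1 (-0.65), the secreted vessel protein EGFL7 (-0.76), the lectin clec14a (-0.65) and the lumen regulator rasip1 (-0.67). Of the 64 members, 55 had a log2 fold change below 0 and 9 above 0, the highest at 0.55.

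In sorted bulk RNA, fewer cells of a type and less RNA per cell cannot be told apart. The summed level of the 64 endothelial genes was 11795 to 16963 CPM in the WT-Stat3 libraries and 6465 to 12670 CPM in the CA-Stat3 libraries, the lowest being sibling CA 3. Within wildtypes the sums were 15045 and 16963 CPM against 10552 to 12670 CPM, and within siblings 11795 and 13376 CPM against 6465 to 10178 CPM, so the constructs were separate in each. The summed levels of neural and mesenchymal genes, given below, had higher means with CA-Stat3 in each genotype, and their part in the endothelial difference was not tested. Without sibling CA 3, the count of 37 stayed within 1.5 times and the CA-Stat3 sums were 9893 to 12670 CPM.

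**Figure D2:**
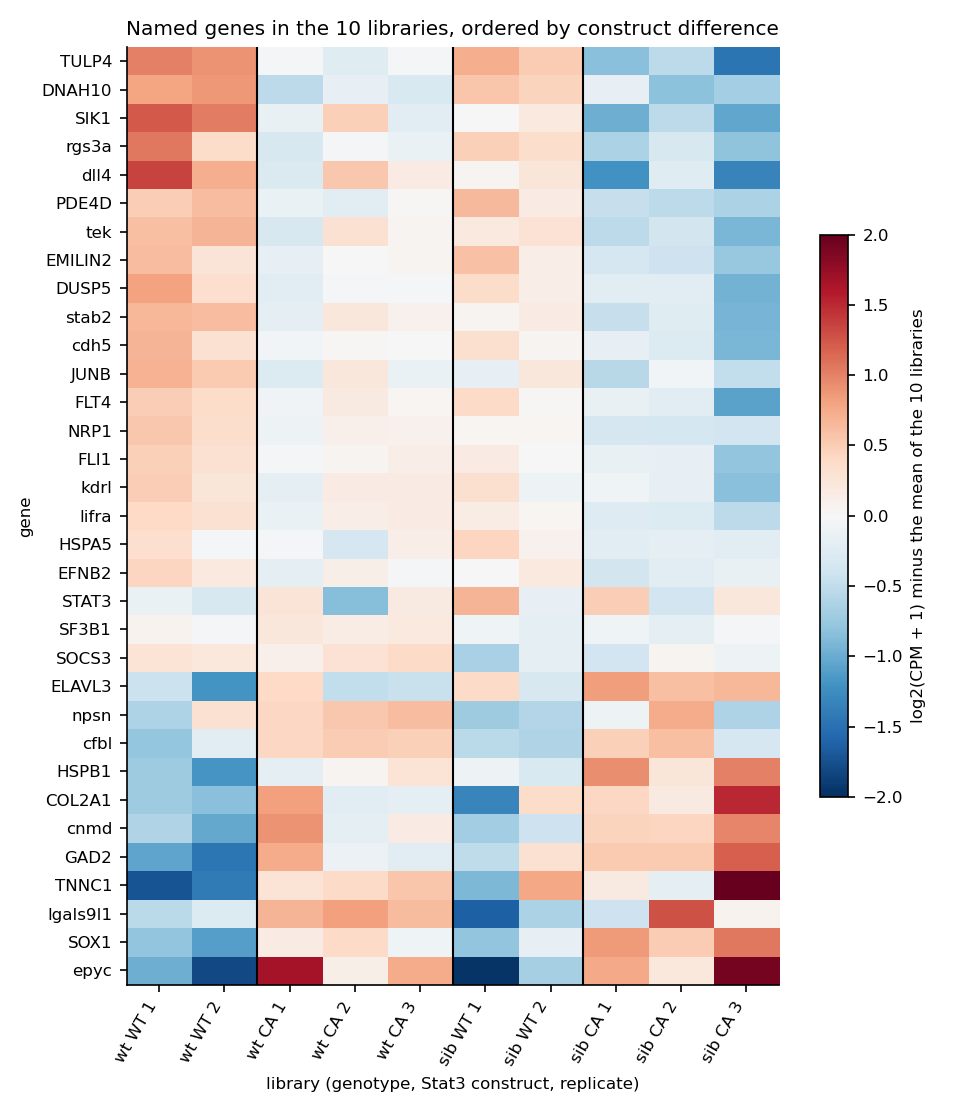
Level of 33 named genes (rows, ordered by the construct difference) in the 10 libraries (columns, by genotype, construct and replicate), as log2(CPM + 1) minus the mean of the 10 libraries, with colours limited to 2 either way. Endothelial and immediate-early genes are mostly red in the WT-Stat3 columns and blue in many CA-Stat3 columns, most of all in sibling CA 3. Most neural and cartilage genes show the reverse.

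Venous and lymphatic genes lay lower too, and 12 of their 34 tested members (35.3%) are also on the endothelial list. Of the 34, 17 were lower and 1 higher at an unadjusted p under 0.05, against 6.69% and 5% of all genes. The list's median was -0.41. Its members included 9 that were separate and lower, against 3.73% of all genes. DESeq2 called 7 lower, against 1.46% of the genes to which it gave an adjusted p. The scavenger receptor stab2, which clears hyaluronan, had 2438 and 2354 CPM in wildtypes and 1595 and 1718 CPM in siblings with WT-Stat3. With CA-Stat3, stab2 had 1353, 1807 and 1626 CPM in wildtypes and 1122, 1301 and 809 CPM in siblings, separate in each genotype, at -0.60 ± 0.13. The matrix gene EMILIN2 (ENSDARG00000061196) was at -0.68 ± 0.14 and the lymphatic receptor FLT4, which binds Vegfc, at -0.51 ± 0.16. Of the other emilin genes on the list, emilin1b was at -0.43 ± 0.16, emilin2b at 0.40 ± 0.25 and emilin1a at 0.55 ± 0.25. Emilin1a was the 1 member that was higher at the unadjusted level. The venous transcription factor NR2F2 was at -0.03 ± 0.16 and overlapped, as did the venous ephrin receptors ephb4a (-0.38 ± 0.19) and ephb4b (-0.09 ± 0.14).

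Arterial genes had a median below 0, and 9 of the 36 tested (25%) are also on the endothelial list. Of 36 tested, 13 were lower and 1 higher at the unadjusted level, against 6.69% and 5% of all genes, with a median of -0.26. The 13 became 8, 7 and 8 without wildtype WT 1, sibling WT 1 and wildtype CA 1. The Notch ligand dll4 had 288 and 187 CPM in wildtypes and 117 and 134 CPM in siblings with WT-Stat3. With CA-Stat3, dll4 had 91.7, 164 and 127 CPM in wildtypes and 48.4, 94.9 and 44.3 CPM in siblings, separate in each genotype, at -0.95 ± 0.22. The Vegf and semaphorin co-receptor NRP1 was at -0.41 ± 0.09, the arterial ephrin ligand EFNB2 (ENSDARG00000020164) at -0.35 ± 0.11 and the arterial factor HEY2 at -0.51 ± 0.22, the first 2 being separate and HEY2 overlapping. A second EFNB2 entry (ENSDARG00000074050) was at -0.04 ± 0.18 and overlapped.

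The Notch pathway as a whole had a median near 0. Of 50 tested members 3 were higher and 6 lower at the unadjusted level, against 5% and 6.69% of all genes, with a median of 0.02. In this list, dll4 and the ligand dlc (-0.50 ± 0.14) had the smallest p. Both are also arterial genes, and 14 Notch members (28%) are on the arterial list. Of 40 haemogenic and blood stem cell regulators, 2 were higher and 5 lower, with a median of 0.02. The stem cell factors RUNX1 (0.10 ± 0.31) and MYB (0.17 ± 0.21) overlapped between constructs, RUNX1 at only 1.61 to 6.15 CPM. The smallest p of this list were those of dlc, which is also a member, and of ZFPM1, a GATA partner, at -0.50 ± 0.15.

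Immediate-early genes, which are switched on within minutes of a signal or of cell handling, lay lower with CA-Stat3. Of 58 tested, 18 were lower and 0 higher at an unadjusted p under 0.05, against 6.69% and 5% of all genes, with a median of -0.25. Of these 58, 8 were separate and lower, against 3.73% of all genes. DESeq2 called 4, all lower, against 1.46% of the genes to which it gave an adjusted p. The 18 became 11 without wildtype WT 1, which had the highest summed level at 14346 CPM against 7259 to 11664 CPM in the other 9 libraries. The list holds SIK1, described above, and 15 of the 58 (25.9%) are also on the list of Stat3 targets. DUSP5, a phosphatase that inactivates ERK, had 352 and 253 CPM in wildtypes and 258 and 220 CPM in siblings with WT-Stat3. With CA-Stat3, DUSP5 had 173, 194 and 196 CPM in wildtypes and 172, 173 and 104 CPM in siblings, all below the WT-Stat3 libraries, at -0.68 ± 0.15. The zinc finger factor egr1 was at -0.73 ± 0.33 and overlapped, with 96.4 to 608 CPM among the CA-Stat3 libraries. FOS was at -0.14 ± 0.25 and JUN at -0.08 ± 0.12, both with overlap.

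Endoplasmic reticulum chaperones and unfolded protein genes had 6 of 35 lower and 0 higher at the unadjusted level, against 6.69% and 5% of all genes. Their median was -0.13, and 2 were lower without sibling WT 1. The chaperones HSP90B1 and HSPA5 of this compartment were at -0.33 ± 0.10 and -0.35 ± 0.12. Heat-shock genes had 2 of 36 higher and 0 lower, with a median of 0.08. The small heat-shock protein HSPB1 had 15.9 and 11.2 CPM in wildtypes and 24.9 and 21.6 CPM in siblings with WT-Stat3. With CA-Stat3, HSPB1 had 23.2, 27.9 and 32.6 CPM in wildtypes and 51.8, 31.9 and 54.7 CPM in siblings, separate in each genotype, at 1.01 ± 0.18, and DESeq2 called it higher. The inducible chaperone hsp90aa1.1, which is also a muscle gene in zebrafish, was at 1.26 ± 0.53 and overlapped, with 111 CPM in sibling CA 3.

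Lists of genes of tissues outside the endothelium had medians above 0. Their counts stand against 5% of all genes higher and 6.69% lower at an unadjusted p under 0.05. Of 74 tested neural genes, 19 were higher and 1 lower at that level, with a median of 0.40. DESeq2 called 5 higher, against 0.624% of the genes to which it gave an adjusted p. Summed neural levels were 1739 and 1423 CPM against 1651 to 1896 CPM in wildtypes and 1820 and 2073 CPM against 2057 to 2883 CPM in siblings, so they overlapped. GAD2, which makes the neurotransmitter GABA, had 1.35 and 0.791 CPM in wildtypes and 2.44 and 5.03 CPM in siblings with WT-Stat3. With CA-Stat3, GAD2 had 7.18, 3.50 and 3.23 CPM in wildtypes and 6.04, 6.01 and 10.2 CPM in siblings, at 1.45 ± 0.38 and separate in each genotype. The neuronal RNA-binding protein ELAVL3 was at 0.64 ± 0.21 with overlap. The neural progenitor factor SOX1 had the smallest p of the list but rested on 0 to 5 counts in the WT-Stat3 libraries and 7 to 23 in the CA-Stat3 libraries.

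Mesenchyme, notochord and cartilage genes had 19 of 75 higher and 2 lower at the unadjusted level, with a median of 0.33. Of the 75, 9 were separate and higher, against 1.95% of all genes. Of the same 75, DESeq2 called 8 higher and 1 lower, against 0.624% and 1.46% of the genes to which it gave an adjusted p. Their summed level was 4568 and 4983 CPM against 5440 to 6896 CPM in wildtypes, with no overlap, and 3196 and 5459 CPM against 4812 to 7643 CPM in siblings, with overlap. The cartilage proteoglycan epyc had 2.21 and 0.791 CPM in wildtypes and 0.609 and 2.98 CPM in siblings with WT-Stat3. With CA-Stat3, epyc had 19.0, 5.79 and 9.53 CPM in wildtypes and 9.68, 6.30 and 22.6 CPM in siblings, every one above the WT-Stat3 libraries, at 2.90 ± 0.53. It had 5 to 18 counts in the WT-Stat3 libraries and 43 to 148 in the CA-Stat3 libraries. The cartilage and notochord genes cnmd (1.33 ± 0.26) and COL2A1 (ENSDARG00000069093, 1.04 ± 0.34) lay higher too, cnmd separately and COL2A1 with overlap. Fibrillar COL1A1 (ENSDARG00000035809) was at 0.68 ± 0.25 and COL1A2 at 0.55 ± 0.24, both with overlap. The entry col1a1a (ENSDARG00000012405) had 168 to 474 CPM with WT-Stat3 and 298 to 724 CPM with CA-Stat3. Another COL2A1 entry (ENSDARG00000011407) had 100 to 253 CPM with WT-Stat3 and 145 to 323 CPM with CA-Stat3. Further matrix genes of cartilage, named after their values were seen, were COL9A2 (1.18), COL11A2 (1.39), col9a3 (1.37) and acana (1.89). Of the 75 members, 53 had a log2 fold change above 0 and 22 below 0, the lowest at -0.89.

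Macrophage and neutrophil genes had 15 of 63 higher and 0 lower at the unadjusted level, against 5% and 6.69% of all genes, with a median of 0.38. However, the count of 15 depended on single libraries. It was 5 without wildtype WT 1, 30 without wildtype WT 2 and 32 without sibling CA 3. Their summed level was 2672 and 4923 CPM against 4680 to 5176 CPM in wildtypes and 2808 and 2867 CPM against 2332 to 5370 CPM in siblings. The neutrophil granule genes npsn and lyz were at 0.69 ± 0.23 and 0.61 ± 0.23, the macrophage receptor csf1ra at 0.54 ± 0.32 and the galectin lgals9l1 at 1.71 ± 0.43. Lgals9l1 and IRF8 (0.93 ± 0.27), the factor that directs macrophage fate, were the 2 DESeq2 calls. Both were higher, against 0.624% of the genes to which DESeq2 gave an adjusted p. The marker genes mpeg1.1 and mpx were not analysed here.

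Muscle genes had the highest median of the 27 lists, 0.98 over 71 tested, and the least stable count. At the unadjusted level 7 were higher and 2 lower. DESeq2 called 0, against 2.08% of the genes to which it gave an adjusted p. The 7 became 2 to 12 without 1 of 8 libraries, 0 without sibling CA 3 and 40 without sibling WT 2. Sibling CA 3 and sibling WT 2 had 16976 and 8373 CPM of summed muscle genes, against 2269 to 5026 CPM in the other 8. Over all leave-outs the median ran from 0.23 to 1.86. The troponin TNNC1 was at 1.55 ± 0.52 and the skeletal actin ACTA1 (ENSDARG00000055618) at 1.15 ± 0.68. The myogenic factor MYOD1 was at 1.63 ± 0.72 on 0 to 31 counts a library, and the tropomyosin tpm4a, which is on the list but also expressed outside muscle, was at -0.42 ± 0.15.

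Epidermal genes had 9 of 56 higher and 5 lower, with a median of 0.30. DESeq2 called 2 higher, against 0.624% of the genes to which it gave an adjusted p. The 9 became 17 without sibling WT 2 and 5 without wildtype WT 1, wildtype CA 3 or sibling CA 3. Summed epidermal levels overlapped, at 5150 to 6087 CPM with WT-Stat3 and 5244 to 7128 CPM with CA-Stat3. The junction gene cldni was at 0.83 ± 0.23, the desmosome gene DSP (ENSDARG00000022309) at -0.46 ± 0.13, and the keratins krt4 and krt5 at 0.98 ± 0.43 and 1.27 ± 0.53. Erythroid genes had 3 of 39 higher and 0 lower, with a median of 0.32, and 18 higher without sibling CA 3, 8 without wildtype CA 3 and 1 without wildtype CA 1, sibling CA 1 or wildtype WT 2. The red cell membrane genes add2 and SLC4A1 (ENSDARG00000012881) were at 0.76 ± 0.22 and 0.50 ± 0.30, hemgn, an erythroid nuclear factor, at 0.82 ± 0.35, and the erythroid factor gata1a at 0.36 ± 0.33. Summed erythroid levels overlapped, at 1352 to 3017 CPM with WT-Stat3 and 1241 to 4693 CPM with CA-Stat3. Genes of other organs (lens, pigment, ear, yolk, liver, gut and kidney) had 3 of 48 higher and 0 lower, with a median of 0.22 and 0 higher without sibling CA 3. Among them, CDH17 (2.75 ± 0.96) rested on 0 to 12 counts in the WT-Stat3 libraries, and the fatty acid carrier FABP3 was at 0.46 ± 0.19. Summed levels of these other organs overlapped, at 150 to 452 CPM with WT-Stat3 and 175 to 600 CPM with CA-Stat3.

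**Figure D3:**
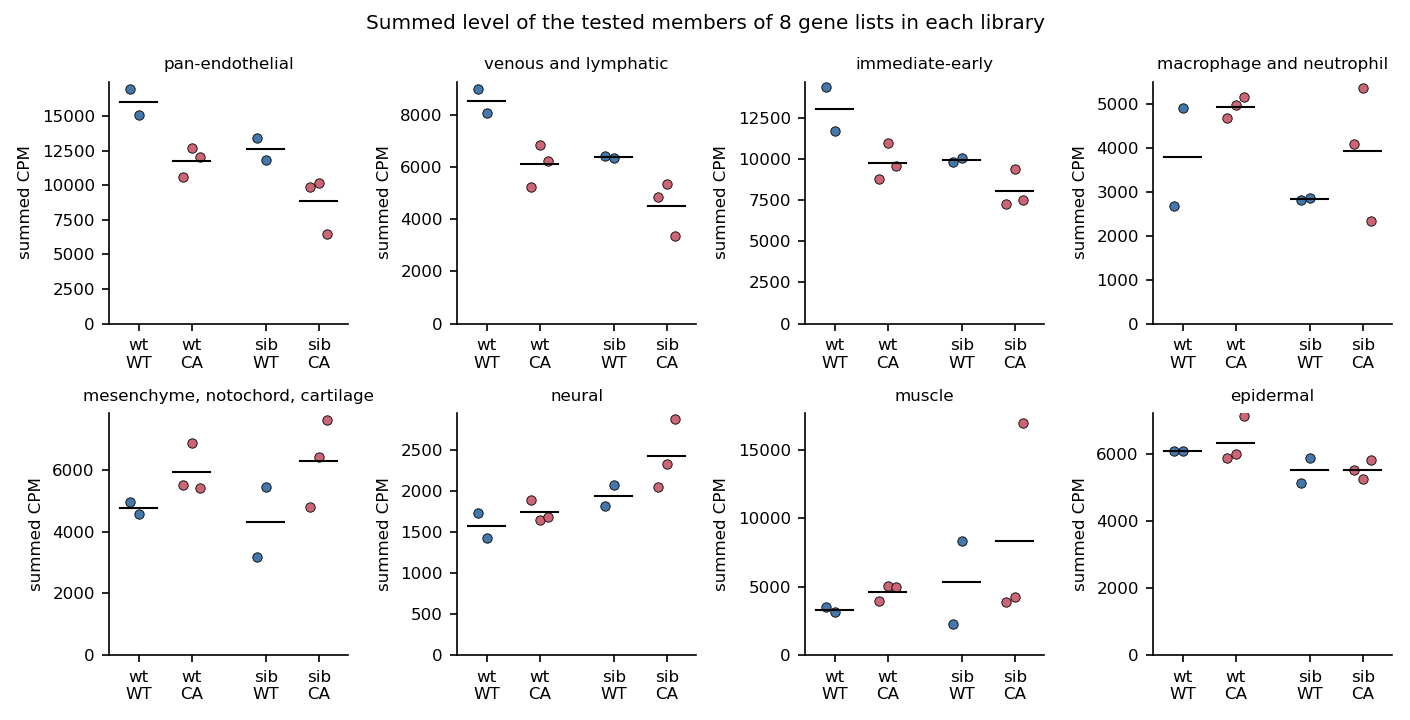
Summed CPM (vertical axis, from 0) of the tested members of 8 gene lists in each of the 10 libraries, by genotype and Stat3 construct, where each point is 1 library and each bar a group mean. Endothelial, venous and immediate-early sums are lower with CA-Stat3 in both genotypes, and sibling CA 3 has the lowest endothelial sum (6465 CPM) and the highest muscle sum (16976 CPM).

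Of the proliferation genes, 10 of 91 were higher and 2 lower at the unadjusted level, against 5% and 6.69% of all genes, with a median of 0.04. The 10 were all among the 46 mitosis genes (median 0.17) and the 2 among the 45 replication genes (median -0.12). NCAPG, a condensin subunit, was at 0.38 ± 0.10 and the mitotic kinase plk1 at 0.36 ± 0.10, both separate in each genotype and called by DESeq2, whereas the proliferation marker mki67 was at 0.13 ± 0.10. The 10 became 5 without wildtype CA 2 and 6 without wildtype WT 2, and the 2 lower became 10 without sibling CA 3.

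The remaining lists held few genes at the unadjusted level, at which 5% of all genes were higher and 6.69% lower. Acute-phase and complement genes had 2 of 14 higher and 0 lower with a median of -0.15, the 2 being cfbl (0.94 ± 0.18), a complement factor B gene that DESeq2 called higher, and cfh (0.77 ± 0.31), an inhibitor of the same pathway. Innate sensing and interferon genes had 1 of 25 higher, IRF8, and 2 lower, among them the RNA sensor DHX58 (-1.23 ± 0.40), with a median of 0.01. Amino acid stress genes had 1 of 55 higher, the asparagine synthetase ASNS (0.31 ± 0.12), and 1 lower, the arginine transporter SLC7A3 (-0.36 ± 0.15), with a median of 0.12. Glycolysis and hypoxia genes had 3 of 51 higher and 2 lower with a median of 0.12. The glycolytic enzyme GAPDH was at 0.89 ± 0.31, and NOS2, a nitric oxide synthase, at -2.34 ± 0.62 on 1 to 57 counts a library.

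Sterol and lipid genes had 3 of 50 higher and 2 lower with a median of 0.10. Their regulator SREBF1 was at -0.35 ± 0.11 and the lipid receptor pparaa at 2.09 ± 0.81 on 0 to 16 counts. Apoptosis genes had 0 of 42 higher and 2 lower, bmf2 (-0.44 ± 0.17) and bik (-0.97 ± 0.39), which promote cell death, with a median of 0.03. Spliceosome genes had 1 of 110 higher and 2 lower, SART3 (-0.26 ± 0.09) and SRSF7 (-0.52 ± 0.20), with a median of 0.03, and SF3B1 (ENSDARG00000056138), the gene mutated in the study, was at 0.10 ± 0.09 and 160 to 214 CPM. Ribosomal protein genes had 0 of 78 in either direction with a median of -0.03, the smallest p being those of rplp2 (0.25 ± 0.12) and RPS15 (-0.21 ± 0.12). Mitochondrially encoded genes had 1 of 13 higher, MT-ND6 (0.27 ± 0.11), a median of 0.09, and MT-CO3 at 0.18 ± 0.10. No member of these lists was called by edgeR, and DESeq2 called only cfbl and IRF8 among them. The shares called were 0.00568% of all genes by edgeR and 2.08% of the genes to which DESeq2 gave an adjusted p.

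Without sibling CA 3, small counts at the unadjusted level moved in several lists. The members that were higher went from 2 to 4 for JAK-STAT components, from 2 to 5 for haemogenic genes and from 3 to 6 for both glycolysis and sterol genes. They went from 3 to 1 for Notch genes, from 2 to 1 for heat-shock genes and from 1 to 2 for amino acid stress genes, and from 1 to 0 for arterial, venous and spliceosome genes. Those that were lower went from 2 to 4 for spliceosome genes, from 2 to 1 for glycolysis genes, from 5 to 3 for epidermal genes and from 0 to 1 for acute-phase genes. The acute-phase list then had 16 members tested, a median of -0.37 and 1 member called by edgeR, cfbl (1.05, BH-adjusted p = 0.0268).

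**Figure D4:**
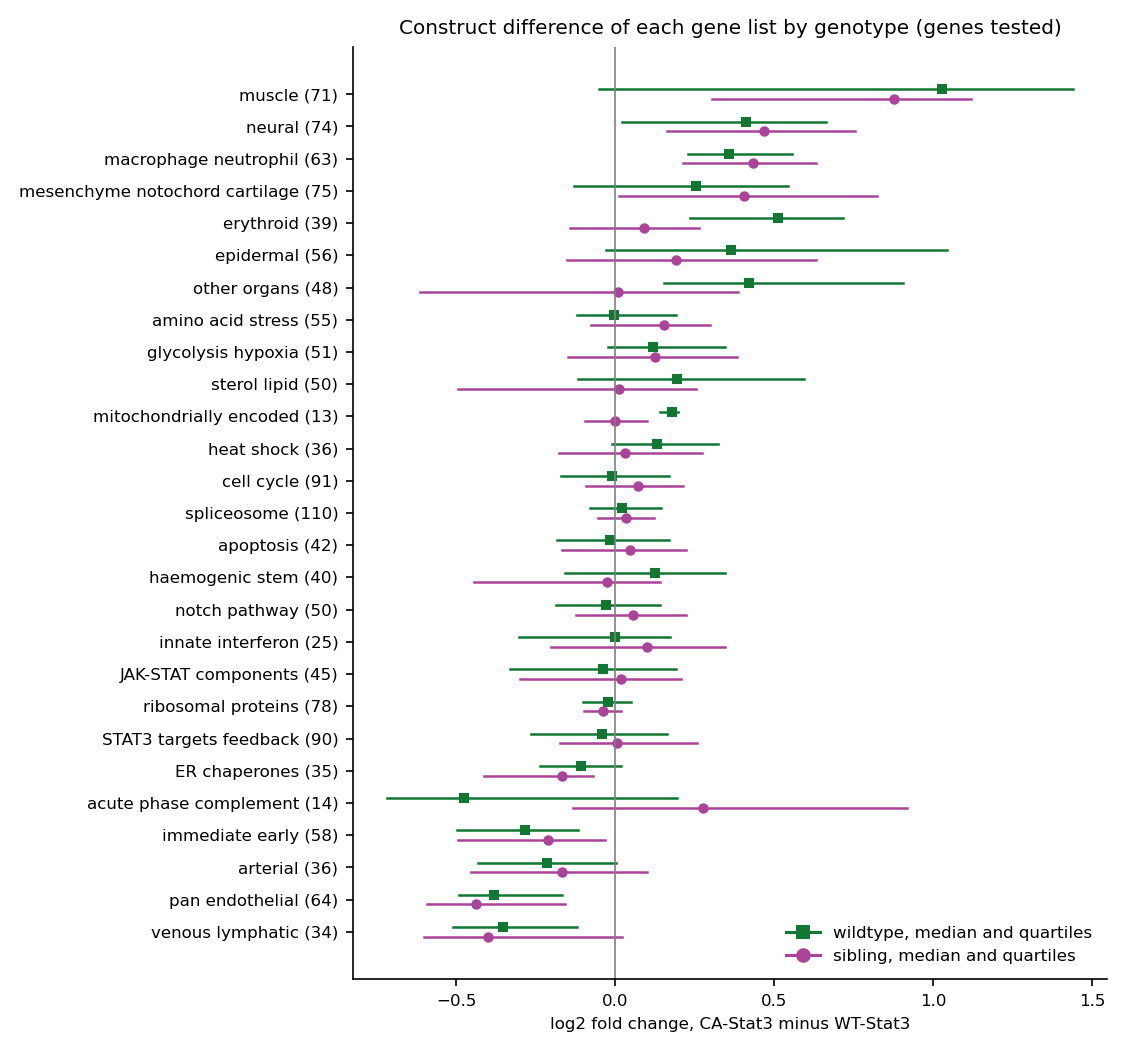
Median (symbols) and quartiles (lines) of the log2 fold change, CA-Stat3 minus WT-Stat3, over the tested members of 27 gene lists (number in brackets), in wildtypes (squares) and siblings (circles). The 3 endothelial lists and the immediate-early list lie below 0 in both genotypes, and the muscle, neural, leukocyte and mesenchymal lists above 0 in both. Other lists also keep their sign, among them the ER chaperones below 0 and the epidermal, erythroid and glycolysis lists above 0.

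The construct difference was also taken in each genotype alone, which compared separate libraries. In wildtypes 0 genes were called by edgeR, with 945 (5.37%) at an unadjusted p under 0.05, 2.5% of all genes higher and 2.87% lower, and DESeq2 called 3. In siblings 0 were called, with 980 (5.57%) at that level, 2.17% higher and 3.4% lower, and DESeq2 called 4. The log2 fold changes of the 14953 genes with an average log2 CPM of at least 1 had a Pearson r of 0.473 and a Spearman rho of 0.442 between the genotypes, a description across genes, which are not independent. Of the 945 genes, 815 (86.2%) had the same sign in siblings, and of the 980, 860 (87.8%) had the same sign in wildtypes. Among all 17597 genes tested, 64.7% had the same sign in both genotypes. At the unadjusted level in both with 1 sign were 260 genes, which were 27.5% of the wildtype and 26.5% of the sibling genes, and 186 of them were lower with CA-Stat3. Only 3 genes were at that level in both with opposite signs.

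HAPLN1, which links hyaluronan to proteoglycans, had the smallest p in wildtypes at -1.32 ± 0.18 (BH-adjusted p = 0.238 by edgeR), and was at -0.36 in siblings. DNAH10 was at -1.18 in wildtypes and -1.05 in siblings. The cyclic nucleotide channel subunit cngb1b, SIK1 and wipf3, an actin regulator, were next in wildtypes at -1.72, -1.06 and -0.99. In siblings the smallest p was that of TULP4 at -1.64 ± 0.28 (BH-adjusted p = 0.872 by edgeR), followed by CSPG4, a pericyte proteoglycan, at 1.25, PDE4D at -0.98 and fam83ga at -1.87. Of these genes, cngb1b was at -0.97, wipf3 at -0.66 and CSPG4 at 0.38 in the other genotype. The endothelial list's median was -0.38 in wildtypes and -0.44 in siblings, and the neural median 0.41 and 0.47.

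The difference between the genotypes was tested by an interaction term, which called 0 genes by edgeR, DESeq2 and limma, with 248 (1.41%) at an unadjusted p under 0.05, 0.608% higher and 0.801% lower in siblings. The 5 genes with the smallest p, none of them called (BH-adjusted p = 0.99994 by edgeR), were GRIN1, HAPLN1, NHS, PRUNE1 and EBF1. HAPLN1 was the only one of the 5 with the same sign in both genotypes, and the other 4 lay between 1.42 and 8.29 CPM in the WT-Stat3 libraries. The lists with the largest gap between genotypes in the plot of list medians were the acute-phase list (-0.48 in wildtypes, 0.27 in siblings), the erythroid list (0.51 and 0.09) and the other organs (0.42 and 0.01). At the unadjusted level of the interaction these lists had 0, 0 and 1 genes.

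**Figure D5:**
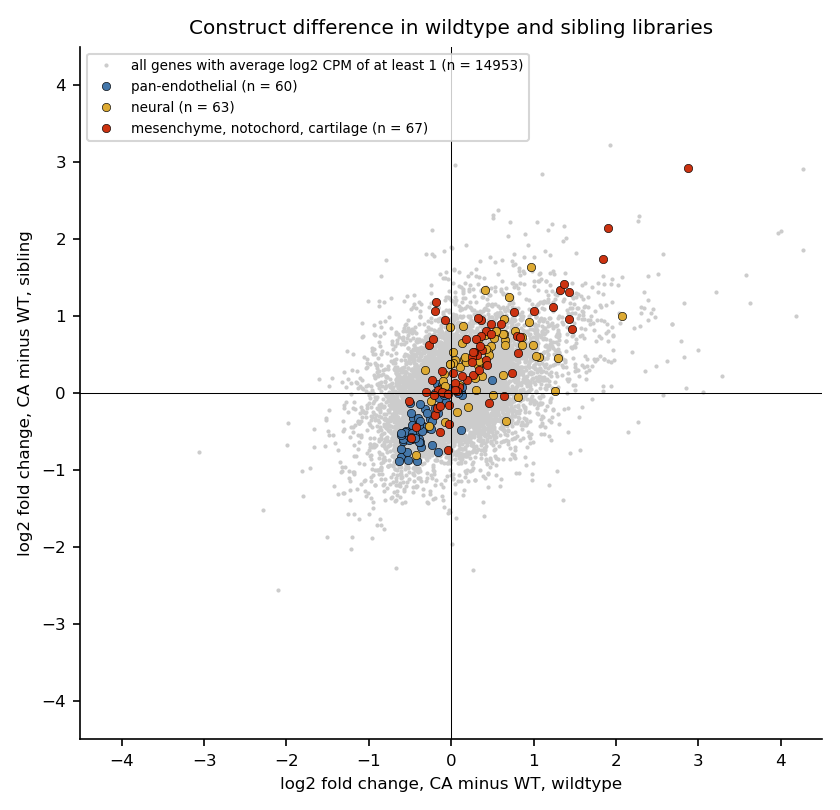
Log2 fold change, CA-Stat3 minus WT-Stat3, in siblings (vertical axis) against that in wildtypes (horizontal axis) for the 14953 genes with an average log2 CPM of at least 1 (grey) and members of 3 lists (coloured), with 5 genes outside the axes. The endothelial genes gather at the lower left and most neural and mesenchymal genes at the upper right.

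The 5 mutant libraries served to test where the construct difference in these embryos departed from that in sf3b1 mutants. No gene was called by edgeR for the departure, with 1242 (6.89%) at an unadjusted p under 0.05, 4.03% higher and 2.86% lower in mutants, and DESeq2 called 1. Without mutant WT 1 edgeR called 210, and that left 1 library in its group, which was assumed to vary like the other groups. In mutants the construct difference itself had 0 calls, with 1845 genes (10.2%) at the unadjusted level, 6.09% higher and 4.15% lower. TULP4, at -1.37 in non-mutants, was at 0.17 in mutants, a difference of 1.53 ± 0.34 (BH-adjusted p = 0.66 by edgeR). The others of the 5 genes with the smallest p were si:dkey-153m14.1 (-1.98 ± 0.42), VASN (2.07 ± 0.44), PFDN6 (1.31 ± 0.29) and ighm (4.2 ± 0.97), each as mutant minus non-mutant difference.

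DNAH10 was at -0.33 in mutants and SIK1 at -0.55. The median of the endothelial list was -0.18 in mutants against -0.40 in non-mutants, and 1 of its 64 genes was higher and 1 lower for the departure at the unadjusted level. The 1 higher became 8 without mutant CA 1. The list's median departure was 0.182, and over the leave-outs it ran from 0.0745 without mutant CA 3 to 0.33 without mutant CA 1. It was 0.145 without mutant WT 1 and 0.26 without mutant WT 2, each of which left 1 library in that group. Ribosomal protein genes, which had a median of -0.03 in non-mutants, had 0.61 in mutants, and 54 of 78 were higher for the departure at the unadjusted level, against 4.03% of all genes. The median departure of the list was 0.59. It was 0.85 without mutant WT 1 and 0.43 without mutant WT 2, each of which left 1 library in that group.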

How the data were processed

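Poly(A) RNA of kdrl-sorted cells was made into low-input libraries, per the labels' protocols. The deposited table gives raw read counts for each Ensembl gene, and 0 of its columns lacked a sample. Per the submitters' processing notes these came from build GRCz10, with featureCounts, STAR 2.4.2a, DESeq2, Picard and Trim Galore as the named tools. The labels give neither their order nor the annotation release, strand or duplicate settings, so near-identical paralogs and overlapping genes are uncertain.

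The main tool was edgeR 4.0.16 (R 4.3.3), run on the 10 libraries. The filter filterByExpr (minimum count 10, minimum total 15) passed 17597 of 27304 detected genes. After TMM scaling, the quasi-likelihood test of CA-Stat3 minus WT-Stat3 had genotype as a covariate and 7 residual degrees of freedom. P-values were BH-adjusted over all genes with a threshold of 0.05. The differences by genotype used a coefficient per group (6 residual degrees of freedom), and those from mutants all 15 libraries (18020 genes, 9 degrees). Standard errors are the size of the log2 fold change divided by the root of F. The tests were checked on simulated counts. The alternatives were DESeq2 1.42.0, limma 3.58.1, RLE scaling, no filter, a stricter one (total of 50 and at least 4 libraries with 1 CPM), no genotype covariate, a replicate block and each library left out. Leaving out the row zgc:158463, and sibling CA 3 under DESeq2, were chosen after seeing the data.

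The libraries, comparisons and 27 gene lists were chosen with earlier results of these data known, and lists are described by counts and medians without a test. Named were STAT3, SF3B1 and kdrl, the called gene, the 5 genes with the smallest p in each comparison (average log2 CPM of at least 1), the 2 members of each list with the smallest p, and best-known members, except for 1 gene that is not reported here. Symbols came from a table of gene names (26269 of 32105 identifiers matched, some symbols in capitals). Separate means no overlap of CPM between constructs within wildtypes and within siblings. Promoter and protein sequences were not used here.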

Additional observations from a re-analysis of the deposited data

Results flagged for a closer look

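Within the 4 WT-Stat3 and the 6 CA-Stat3 libraries, each pooled over genotype, single libraries lay farther from the others than Dixon's 95% limit allows in 11 of 120 groups of values. Chance alone passes that limit in about 1 of 20 groups, and the wildtype and sibling genotypes were not separated in it.

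Replicate 3 of the sibling CA-Stat3 libraries was the distant library in 5 of the 11. It had the highest summed muscle level (16976 CPM), the highest summed level of other organs (599.8 CPM) and the highest TNNC1 (37.9 CPM), and the lowest DUSP5 (104 CPM) and cfbl (29.4 CPM) of the 6 CA-Stat3 libraries. The cfbl value still lay above those of both sibling WT-Stat3 libraries.

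Among the 4 WT-Stat3 libraries, sibling WT 2 had the highest summed proliferation level (8692 CPM) and the highest TNNC1 (15.098 CPM). Sibling WT 1 had the highest STAT3 (483 CPM). Wildtype WT 2 had the highest summed macrophage and neutrophil level (4923 CPM) and the highest npsn (539 CPM), and wildtype WT 1 had the highest rgs3a (91.5 CPM).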

How the results depend on the processing

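The count of 1 gene called between constructs was the same with RLE size factors, the stricter filter, all 15 libraries or without the row zgc:158463. It was 267 with DESeq2, 223 with DESeq2 without sibling CA 3, 3 with limma, 132 with no filter and 0 without the genotype covariate. With the replicate block it was 0. Leaving out each library gave 0 to 3 calls, the 3 being without sibling CA 3. The cause of these moves was not tested. In wildtypes the count of 0 became 3 with DESeq2 and 2 with no filter, in siblings 4 and 1, and the interaction stayed at 0 in every setting run. For the departure from mutants it became 1 with DESeq2 and 19 with no filter, and leaving out each library gave 0 to 210.

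Replicate numbers were not taken to pair the libraries in the main test, since the labels do not say what they mark. Whether same-numbered libraries share a batch was not tested. Replicate number 3 occurs only with CA-Stat3, so a batch with that number could not be told apart from the construct. Deviations from the group means of same-numbered libraries had correlations of -0.148 to 0.352 over 13 pairs, of which 7 were over 0.1. Those of differently numbered libraries were -0.406 to 0.406 over 24 pairs, of which 2 were over 0.1. In groups of 2 libraries the deviations mirror each other, so these correlations are not independent.

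With all 15 libraries TULP4 was called (adjusted p = 0.0436 by edgeR) and DNAH10 was not (0.0607). Genes near 0 turned in sign. STAT3 became 0.0064 with limma and 0.011 with all 15 libraries, and ran from -0.12 to 0.22 as single libraries were left out. SOCS3 (ENSDARG00000025428) became -0.036 with the replicate block and ran from -0.13 to 0.28 over the leave-outs. The receptor gene il6st became -0.012 with limma, -0.045 with the replicate block and -0.011 with DESeq2 without sibling CA 3, and ran from -0.11 to 0.14 over the leave-outs. CEBPD ran from -0.28 to 0.0031 and FOS from -0.34 to 0.017 over the leave-outs. List counts of 10 or fewer at the unadjusted level moved by over 1.5 times without single libraries in most lists, and are descriptions of these libraries.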
